A study of Mus musculus with 9 samples.

Results

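The 37 genes described here encode the enzymes of glycolysis, the pyruvate dehydrogenase step that follows it and the pentose phosphate pathway. They were chosen by gene symbol, and the estimated counts of all transcripts that carry a symbol were summed, so they are 37 of the 52459 gene symbols quantified. All 37 symbols were found. Of these, 34 reached at least 1 CPM (counts scaled to the library's total) in at least 3 libraries and were tested, and the remaining 3, Fbp1, Fbp2 and Ldhb, were not. The symbols were taken by pathway and not by a cut on their values, although earlier results of these data were known.

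RNA-Seq was performed on 9 libraries of NMuMG cells, an immortalized mouse mammary gland epithelial line. Mock cells (3 libraries) carried the empty vector, EPR cells (3 libraries) stably overexpressed the long noncoding RNA EPR (BC030870), and EPRSTOPE cells (3 libraries) overexpressed a mutant of EPR in which a stop codon early in the small open reading frame blocks production of the peptide. All 3 conditions were untreated NMuMG cells selected as transfectant pools in G418. No label states if libraries of the same condition were separate cultures, and p-values measure only the spread between these libraries. The transcript BC030870 held 0, 0 and 2 estimated counts in the mock libraries, 271, 214 and 256 in the EPR libraries and 28, 39 and 33 in the EPRSTOPE libraries, so the mutant was overexpressed to a lower level than EPR. In EPR against EPRSTOPE, the level of the RNA, the loss of the peptide and other differences between the transfected populations cannot be told apart. Against mock, the overexpressed RNA and other differences between the transfected populations cannot be told apart either.

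The libraries held 5972457 to 11876435 estimated counts, and 3 counts corresponded to 0.253 to 0.502 CPM. Mitochondrial genes took 1.18 to 2.58% of the counts. The epithelial label was checked on 12 marker genes, whose summed level was 3693 to 4159 CPM in mock, 9503 to 10611 CPM in EPR and 10688 to 11025 CPM in EPRSTOPE libraries. Keratins Krt8 and Krt18 made up most of that sum in every library, whereas Cdh1, encoding E-cadherin, lay at 0.311 to 1.16 CPM in mock libraries and at 381 to 569 CPM in the others. The summed level of 11 mesenchymal markers was 3953 to 4132 CPM in mock, 2144 to 2371 CPM in EPR and 3874 to 4228 CPM in EPRSTOPE libraries. Of the 5 mesenchymal markers tested, 5 were called lower in EPR and 3 in EPRSTOPE against mock, with medians of -1.44 and -1.06. In both, 0 were called higher, and 12.9% and 12.4% of all tested genes were called lower. The summed level in EPRSTOPE does not show these decreases. Of the 7 epithelial markers tested, 7 were called higher in EPR and 4 in EPRSTOPE against mock, beside 15.2% and 15.6% of all tested genes. A mean of at least 1 CPM was reached by 4 of the 12 epithelial markers in mock, 7 in EPR and 6 in EPRSTOPE. Some of those tested thus passed the filter on low values through the conditions in which they were high. The part of these marker differences in the results was not tested. In such bulk libraries fewer cells of a type and less RNA per cell cannot be told apart.

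Glycolysis splits glucose into pyruvate in a series of reactions, of which those of hexokinase, phosphofructokinase and pyruvate kinase are the controlled, largely irreversible ones. Pyruvate is then either reduced to lactate by lactate dehydrogenase or passed into the mitochondrion and oxidised by pyruvate dehydrogenase, which the pyruvate dehydrogenase kinases switch off. The pentose phosphate pathway branches off after hexokinase and yields NADPH in its oxidative branch and ribose phosphate for nucleotides in its non-oxidative branch. Several steps have isozymes encoded by separate genes with different tissue distribution.

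A member counted as called when its log2 fold change exceeded 0.5 in size and edgeR's adjusted p stayed under 0.01. Log2 fold changes are given ± SE from the same fit. In EPR against mock, 9 of the 34 tested members were called higher and 4 lower, where 15.2% of all 15370 tested genes were called higher and 12.9% lower. EPRSTOPE against mock also gave 9 members higher and 4 lower, with 15.6% and 12.4% of all tested genes. With EPR set directly against EPRSTOPE, 3 members were higher in EPR and 2 were lower, with 6.86% and 6.35% of all tested genes. The median log2 fold change of the tested members was 0.40 in EPR against mock, where the median of all tested genes was -0.01. It was 0.18 beside -0.04 in EPRSTOPE against mock, and 0.01 beside 0.01 in EPR against EPRSTOPE. The comparisons with mock use the same 3 mock libraries and are not independent of each other.

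The overexpressing lines shared 9 calls against mock. Aldoc and Pdk2 are counted among the calls although they passed the filter on low values through the conditions in which they were high. Of the 9 shared calls, 5 were higher in both EPR and EPRSTOPE cells (Hk1, Hk2, Pfkfb2, Pdk1 and Pdk2). The other 4, Pfkp, Pfkfb4, Pdk3 and Rpia, were lower in both. Another 4 were called against mock in EPR cells (Pfkm, Eno3, Ldha and G6pdx) but not in EPRSTOPE cells, and 4 in EPRSTOPE cells (Pfkfb3, Aldoc, Pgls and Taldo1) but not in EPR cells. The difference between EPR and EPRSTOPE was itself called for Pfkm, G6pdx, Pfkfb3, Aldoc and Pgam1. No member was called in opposite directions. Many further differences were smaller than the fold limit, since 12 members in EPR against mock and 8 in EPRSTOPE against mock had an adjusted p under 0.01 without reaching it. For the shared calls, the calls in 1 line only and these smaller differences, the share over all tested genes was not counted. They are therefore not read as a trait of the members. All 37 members together took 0.948 to 0.982% of the counts in mock, 1.07 to 1.12% in EPR and 0.976 to 0.984% in EPRSTOPE libraries. Scaling by library totals instead of TMM (trimmed mean of M values) moved the median of all genes by -0.12 in EPRSTOPE against mock and the share of higher calls from 55.8% to 44.2% of all calls there, where the members' counts were again 9 higher and 4 lower. In EPR against mock that scaling gave 8 higher and 5 lower members, losing Eno3 and gaining Pfkfb1 as lower, and in EPR against EPRSTOPE it gave 4 higher and 2 lower.

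**Figure D1:**
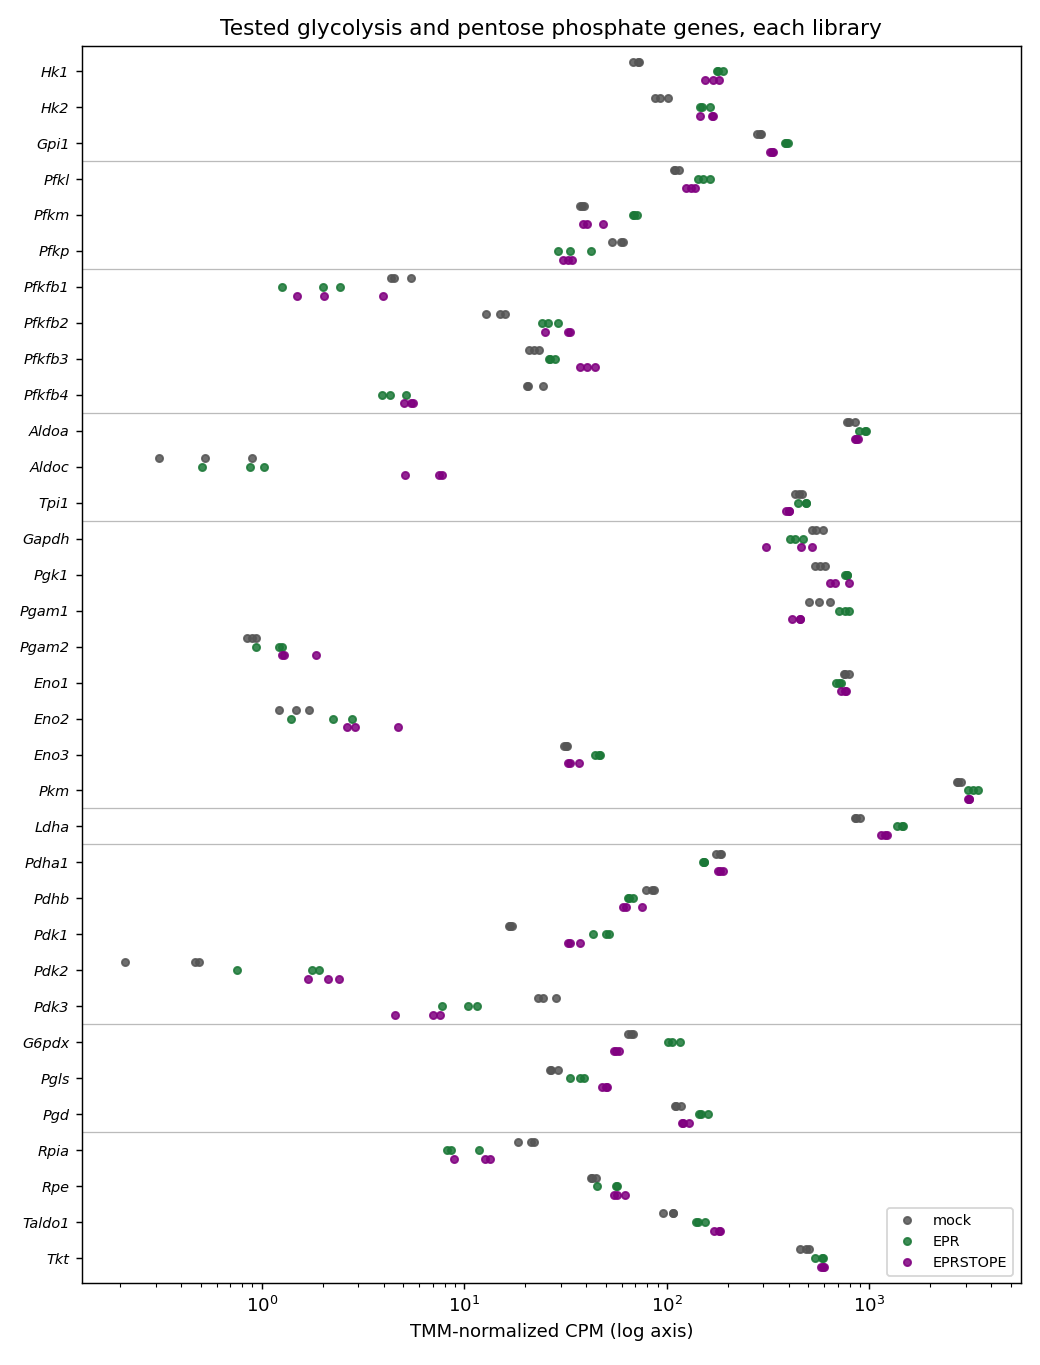
TMM-normalized CPM (log axis) of the 34 tested members, 1 point per library, with mock in grey, EPR in green and EPRSTOPE in purple, and lines separating the roles in the pathway. Pkm is highest in every library, between 2702 and 3430.3 CPM, while Pfkfb4 in mock libraries (20.4 to 24.5 CPM) lies apart from all other libraries.

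**Figure D2:**
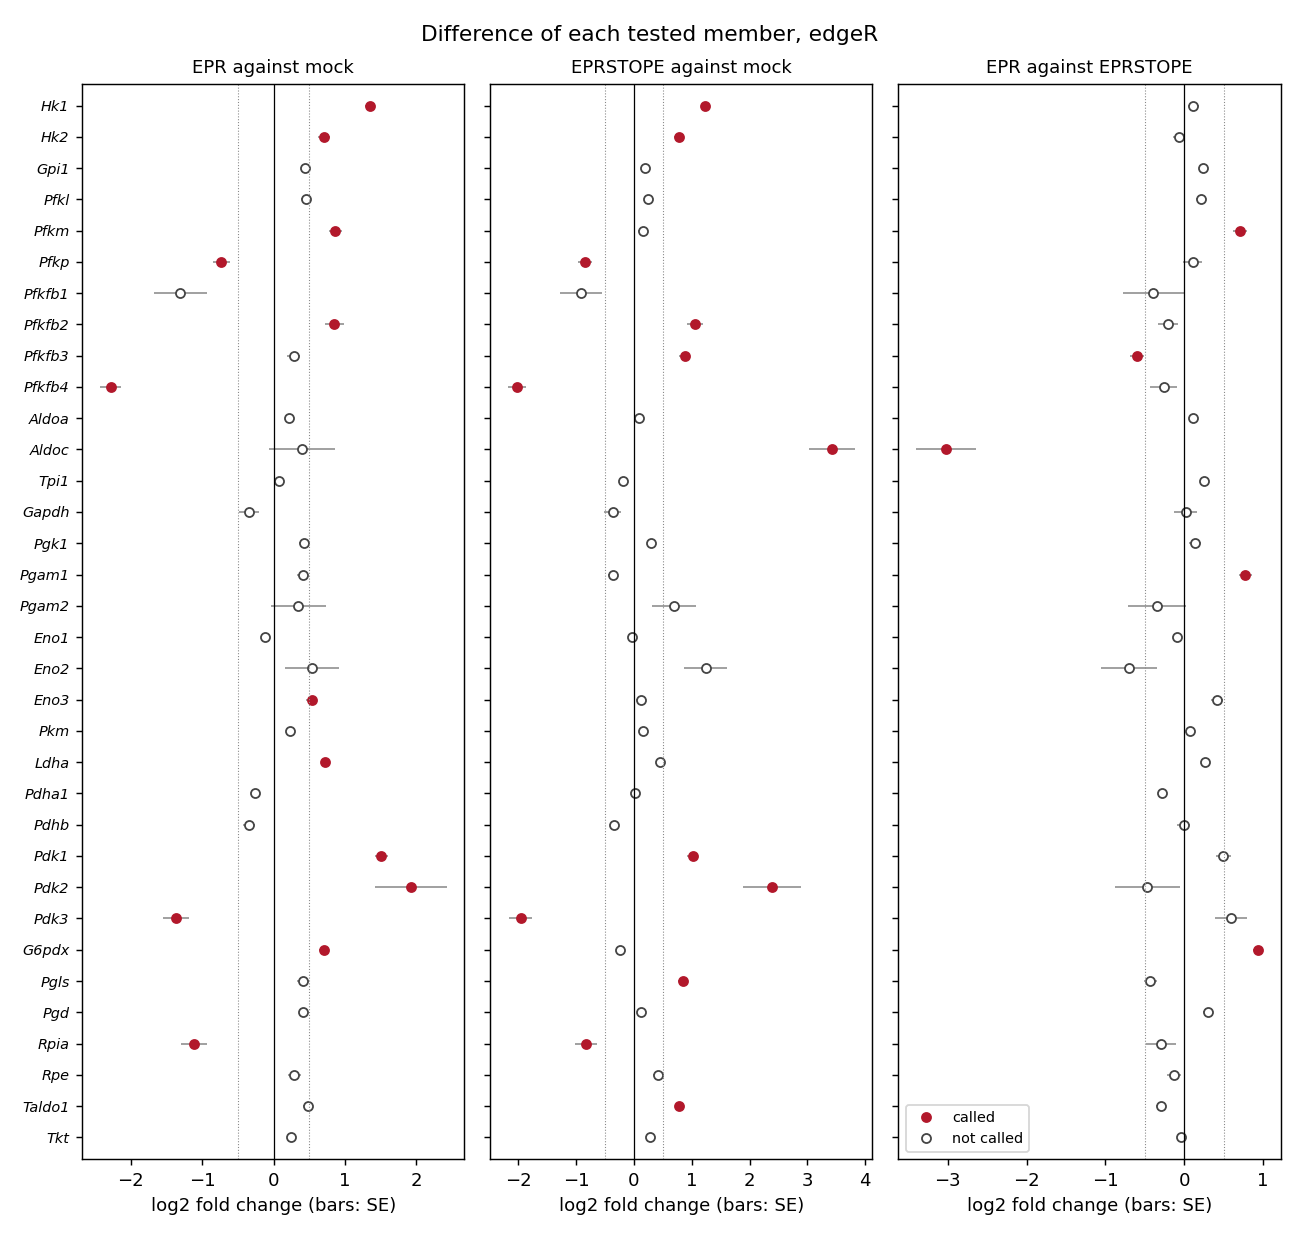
Log2 fold change (x axis, bars are standard errors) of each tested member in the 3 comparisons, with called members filled and dotted lines at the fold limit of 0.5. Hk1, Pdk1 and Pdk2 lie to the right and Pfkfb4 and Pdk3 to the left in both comparisons with mock, and Aldoc stands out in EPRSTOPE against mock at 3.42.

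Glucose is trapped in the cell by the hexokinases, and both expressed forms rose. Hk1 (chr10:62268855-62379908, minus strand, GRCm38), the widely expressed form, was measured at 68.4, 72.9 and 72.3 CPM in the mock libraries, 190.0, 177 and 179 CPM in the EPR libraries and 154, 168 and 182 CPM in the EPRSTOPE libraries. Every EPR and EPRSTOPE library lay above every mock library, and EPR and EPRSTOPE overlapped. The log2 fold change was 1.35 ± 0.07, adjusted p = 1.71e-08 in EPR and 1.24 ± 0.07, adjusted p = 3.17e-08 in EPRSTOPE. Hk2, the inducible form typical of muscle, fat and proliferating cells, was at 101, 87.2 and 92.7 CPM in mock, 149.9, 163 and 146 CPM in EPR and 169.6, 146 and 166 CPM in EPRSTOPE libraries. It again separated both overexpressing lines from mock without separating them from each other, with 0.71 ± 0.08, adjusted p = 1.30e-05 in EPR and 0.78 ± 0.08, adjusted p = 5.91e-06 in EPRSTOPE. Gpi1, which isomerises the hexokinase product, was not called, with 1.36 times the mock level in EPR (log2 fold change 0.44 ± 0.05, adjusted p = 1.09e-05) and 1.15 times in EPRSTOPE (0.20 ± 0.05, adjusted p = 0.00452). For Gpi1 the libraries of all 3 conditions did not overlap. With protein-coding transcripts alone Gpi1 was called in both, at 1.27 (adjusted p = 5.20e-05) in EPR and 0.64 (adjusted p = 0.00618) in EPRSTOPE.

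The phosphofructokinase subunits, which form the tetramer of the committed step, moved apart, with 1 of 3 called higher and 1 lower in EPR. Pfkm, the muscle-type subunit, had 38.2, 38.8 and 37.3 CPM in mock, 71.4, 68.2 and 69.1 CPM in EPR and 40.5, 48.4 and 38.7 CPM in EPRSTOPE libraries. It rose in EPR (0.87 ± 0.08, adjusted p = 4.03e-06) and was higher in EPR than in EPRSTOPE (0.71 ± 0.08, adjusted p = 5.94e-05), while EPRSTOPE overlapped mock (0.16 ± 0.09, adjusted p = 0.149). The direct call was lost with length-scaled TPM counts (0.70). Pfkm lies on chromosome 15, where the 525 other tested genes had medians of 0.49 in EPR and 0.52 in EPRSTOPE against mock, so EPR exceeded and EPRSTOPE fell short of the chromosome's own median. The part of that chromosome-wide difference in the Pfkm result was not tested. Pfkp, the platelet-type subunit, had 60.9, 59.4 and 53.7 CPM in mock, 33.4, 42.4 and 29.2 CPM in EPR and 34.1, 30.8 and 32.4 CPM in EPRSTOPE libraries. Pfkp fell in both EPR (-0.73 ± 0.12, adjusted p = 0.000281) and EPRSTOPE (-0.84 ± 0.12, adjusted p = 0.000112), with no overlap with mock. The call in EPR was lost when only protein-coding transcripts were summed (log2 fold change -0.37), and the call in EPRSTOPE was lost with length-scaled TPM counts (-0.88). Its exons overlap by 748 bases with those of Pitrm1 on the opposite strand, a mitochondrial peptidase gene that was at 233 CPM in mock, 110 CPM in EPR and 115 CPM in EPRSTOPE, and whether the quantification used strand is not given in the sources used here. Pfkl, the liver-type subunit, was not called, at 109.7, 114 and 109 CPM in mock, 151, 163 and 142 CPM in EPR and 131, 137 and 124 CPM in EPRSTOPE libraries.

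The PFKFB genes encode bifunctional enzymes that make and break the sugar bisphosphate that activates phosphofructokinase, and they changed in opposite directions. Pfkfb4 (chr9:108991778-109032228) had 24.5, 20.7 and 20.4 CPM in mock, 4.28, 3.91 and 5.14 CPM in EPR and 5.59, 5.45 and 5.06 CPM in EPRSTOPE libraries. The mean was 4.93 times lower in EPR (-2.28 ± 0.15, adjusted p = 1.74e-07) and 4.08 times lower in EPRSTOPE (-2.02 ± 0.15, adjusted p = 4.47e-07). It was the largest decrease among the members in EPR, whereas in EPRSTOPE it lay within the SEs of that of Pdk3 (-1.96 ± 0.19). The Pfkfb4 call was lost in both when only protein-coding transcripts were summed, with log2 fold changes of -1.23 and -1.55. Pfkfb2, the form abundant in heart, had 15.1, 15.9 and 12.8 CPM in mock, 24.1, 29.0 and 25.8 CPM in EPR and 33.4, 32.6 and 25.0 CPM in EPRSTOPE libraries. It rose in both lines, by 0.85 ± 0.14, adjusted p = 0.000246 in EPR and 1.06 ± 0.14, adjusted p = 4.62e-05 in EPRSTOPE. Pfkfb3, whose product strongly favours synthesis of the activator, had 22.1, 20.9 and 23.3 CPM in mock, 26.4, 26.1 and 28.1 CPM in EPR and 37.1, 40.6 and 44.3 CPM in EPRSTOPE libraries. It rose in EPRSTOPE (0.88 ± 0.09, adjusted p = 7.48e-06) and was lower in EPR than in EPRSTOPE (-0.60 ± 0.09, adjusted p = 0.000373), whereas EPR against mock missed the call (0.28 ± 0.09, adjusted p = 0.0247). Both Pfkfb3 calls were lost with length-scaled TPM counts, at 0.81 and -0.35, and the direct one was also lost with protein-coding transcripts alone (-0.66). Pfkfb1, the liver and muscle form, was at 4.35, 5.49 and 4.48 CPM in mock, 2.01, 1.26 and 2.43 CPM in EPR and 2.03, 3.95 and 1.50 CPM in EPRSTOPE libraries. It was not called (-1.30 ± 0.37, adjusted p = 0.0114 in EPR), but it was called lower in EPR against mock with DESeq2, limma-voom, library totals, no filter, at least 10 counts in every library, the compared conditions only, and without EPRSTOPE 210 or 211, at -1.38 to -1.28. In EPRSTOPE it was called without EPRSTOPE 210 (-1.45).

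The fructose bisphosphatases, which run the phosphofructokinase step backwards in gluconeogenesis, were at the limit of detection. Fbp2, the muscle form, held 0, 0 and 0 counts in mock, 15, 6 and 20 in EPR and 2, 4 and 3 in EPRSTOPE libraries. Against the floor of 3 counts over the 3 mock libraries (0.111 CPM), its mean level was at least 11.9-fold higher in EPR and at least 3.35-fold higher in EPRSTOPE, and it was not tested. Fbp1, the liver form, held 1 count in all 9 libraries together.

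Aldolase and triose phosphate isomerase split the sugar bisphosphate and interconvert the products. Aldoa, the main aldolase here, was not called in any comparison, at 779, 849.9 and 791 CPM in mock, 961, 953 and 886 CPM in EPR and 847, 863 and 878 CPM in EPRSTOPE libraries. Aldoc (chr11:78322968-78327781), the brain-type aldolase, had 0.311, 0.528 and 0.895 CPM in mock, 0.873, 0.505 and 1.03 CPM in EPR and 7.79, 5.13 and 7.48 CPM in EPRSTOPE libraries. The EPRSTOPE libraries stood alone, at 46, 48 and 65 counts against 2 to 11 counts in the other 6 libraries, and Aldoc passed the filter on low values through them. Aldoc rose in EPRSTOPE against mock (3.42 ± 0.40, adjusted p = 1.88e-05) and was lower in EPR than in EPRSTOPE (-3.02 ± 0.38, adjusted p = 9.29e-05), but both calls were lost with protein-coding transcripts alone (log2 fold changes 4.17 and -2.97). The summed level of 3 neuron markers was 0 to 0.175 CPM over all libraries. Tpi1, triose phosphate isomerase, was not called, and its largest difference was 0.26 ± 0.05, adjusted p = 0.00384 between EPR and EPRSTOPE.

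In the lower part of glycolysis, where the triose phosphates are turned into pyruvate, 8 members were tested, and 1 was called higher in EPR against mock and another in EPR against EPRSTOPE. Eno3, the muscle enolase, was the one called in EPR, with 31.7, 32.0 and 31.2 CPM in mock, 44.2, 46.5 and 47.0 CPM in EPR and 32.5, 36.9 and 33.4 CPM in EPRSTOPE libraries. Its increase of 0.54 ± 0.08, adjusted p = 9.86e-05 was near the fold limit, and the call was lost with library totals (0.46), with length-scaled TPM counts (0.30) and with protein-coding transcripts alone (0.48). The 5 skeletal muscle markers summed to 0.214 to 1.26 CPM over all libraries. Eno1, the ubiquitous enolase, was at 789, 745 and 757 CPM in mock, 706, 722 and 682 CPM in EPR and 728, 754 and 762 CPM in EPRSTOPE libraries and was not called. Eno2, the neuronal enolase, reached only 1.22 to 4.70 CPM over all libraries and was not called in EPRSTOPE (1.24 ± 0.37, adjusted p = 0.0161), although it was called there with a minimum of 10 counts in every library (1.25, adjusted p = 0.00463).

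Pgam1, the main phosphoglycerate mutase, differed between the overexpressing lines. It had 501, 639.9 and 565 CPM in mock, 711, 793 and 760.4 CPM in EPR and 455, 453 and 415 CPM in EPRSTOPE libraries, with no overlap between any conditions. The difference between EPR and EPRSTOPE was called (0.78 ± 0.08, adjusted p = 2.38e-05), while those against mock were under the fold limit (0.41 ± 0.08, adjusted p = 0.00128 in EPR and -0.37 ± 0.08, adjusted p = 0.00276 in EPRSTOPE). Pgam1 lies on chromosome 19, where the median of the 476 other tested genes was -0.56 in EPRSTOPE against mock, -0.02 in EPR against mock and 0.55 in EPR against EPRSTOPE. Its 40 nearest tested neighbours had medians of -0.64, -0.09 and 0.47, and the part of these chromosome-wide differences in the Pgam1 result was not tested. Pgam2, the muscle mutase, was at 0.844 to 1.86 CPM over all libraries and was not called.

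Gapdh, Pgk1, Eno1 and Pgam1 have near-identical copies elsewhere in the genome, mostly processed pseudogenes, and reads may have been split between gene and copy. Copies were counted where a same-strand alignment of at least 500 bases had at least 95% identity. Gapdh, glyceraldehyde phosphate dehydrogenase, had 588, 519 and 547 CPM in mock, 469, 428 and 407 CPM in EPR and 308, 518 and 459 CPM in EPRSTOPE libraries and was not called (-0.34 ± 0.14, adjusted p = 0.0687 in EPR and -0.36 ± 0.14, adjusted p = 0.0568 in EPRSTOPE). Its 83 copies held 1496 ± 144 CPM in mock, 1223 ± 113 CPM in EPR and 1060 ± 69.8 CPM in EPRSTOPE (mean ± SD, n = 3), more than Gapdh itself in every condition. The single pseudogene Gm13394 took 1262 CPM of these in mock cells. With the copies added, an alternative chosen after the data were seen, the Gapdh log2 fold change was -0.30 ± 0.07 (SE) in EPR and -0.46 ± 0.07 in EPRSTOPE, still under the fold limit. The level of Gapdh in these files is therefore uncertain, and with protein-coding transcripts alone its log2 fold change turned to 1.04 in EPR and to 5.16 in EPRSTOPE, where it was called higher (adjusted p = 0.00349). Without EPRSTOPE 210 it was instead called lower in EPRSTOPE (-0.52, adjusted p = 0.00826). Pgk1, phosphoglycerate kinase, was at 540.3, 602 and 572 CPM in mock, 759, 773 and 777 CPM in EPR and 794, 638 and 674 CPM in EPRSTOPE libraries and was not called (0.43 ± 0.07, adjusted p = 0.000458 in EPR), except in EPR with length-scaled TPM counts (0.59, adjusted p = 0.00778). Its copies Gm5537 and Pgk1-rs7 held 37.0% of the summed reads in mock, 24.3% in EPR and 29.9% in EPRSTOPE, and with them added the log2 fold change was 0.17 in EPR and 0.14 in EPRSTOPE. The copies of Eno1, led by Eno1b, held 60.0%, 59.1% and 57.7% of its sum in the same order, and Eno1 remained uncalled with them. The copy Pgam1-ps2 held 160.3 CPM in mock, 126 CPM in EPR and 81.3 CPM in EPRSTOPE, and with it added the direct Pgam1 difference was 0.75 ± 0.06 and stayed called.

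**Figure D3:**
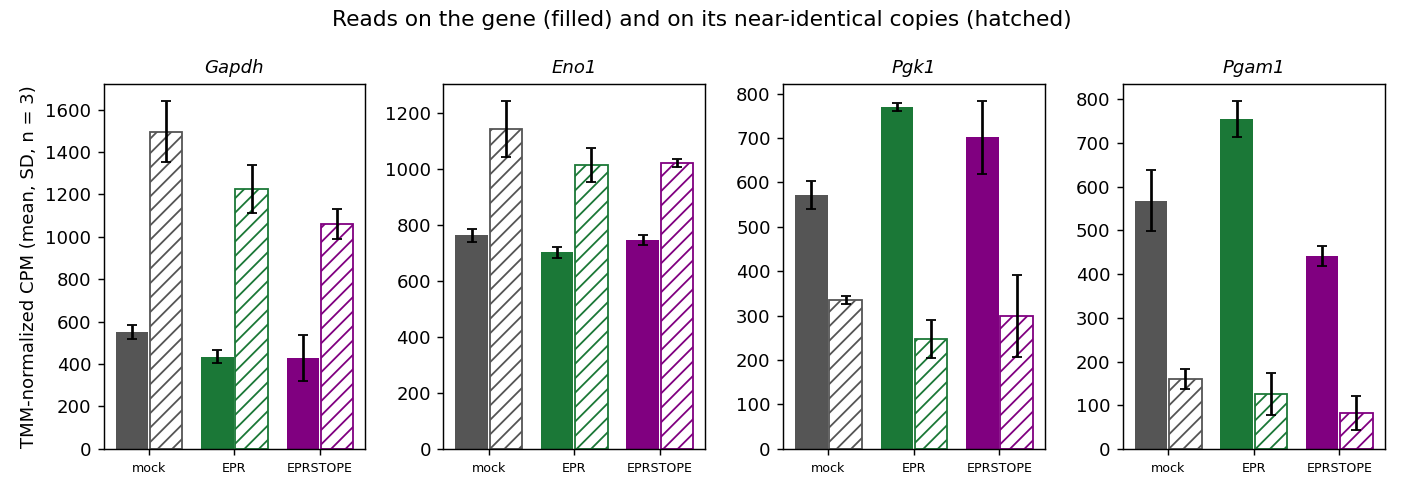
Mean TMM-normalized CPM (bars from 0, SD over 3 libraries) of Gapdh, Eno1, Pgk1 and Pgam1 (filled) and of the sum of their near-identical copies (hatched) in mock, EPR and EPRSTOPE cells. Copies exceed the gene for Gapdh (1496 against 551 CPM in mock) and Eno1, and are the smaller part for Pgk1 and Pgam1.

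Pyruvate kinase, the last step, is encoded by Pkm, whose transcripts use one of a pair of mutually exclusive exons. The exons are shown because they alone separate the M1 enzyme of adult muscle and brain from the M2 enzyme of proliferating cells. Both are coding exons on the plus strand of chromosome 9 (GRCm38) and have 167 bases each, and capitals mark the 64 positions at which they differ (61.7% identity).
Pkm M1 exon, chr9:59675029-59675195: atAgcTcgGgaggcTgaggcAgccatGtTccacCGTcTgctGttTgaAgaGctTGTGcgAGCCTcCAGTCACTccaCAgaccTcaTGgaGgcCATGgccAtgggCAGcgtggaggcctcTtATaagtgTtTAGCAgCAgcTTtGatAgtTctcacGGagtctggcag
Pkm M2 exon, chr9:59675568-59675734: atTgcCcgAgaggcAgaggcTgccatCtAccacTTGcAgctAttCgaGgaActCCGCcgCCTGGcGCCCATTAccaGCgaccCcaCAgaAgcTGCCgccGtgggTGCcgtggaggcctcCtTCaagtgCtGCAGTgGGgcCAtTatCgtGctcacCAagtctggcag
Pkm as a whole was the most abundant member, with 2702, 2826 and 2742 CPM in mock, 3430.3, 3247 and 3051 CPM in EPR and 3070.2, 3094 and 3108 CPM in EPRSTOPE libraries, and it was not called (0.23 ± 0.05, adjusted p = 0.000972 in EPR and 0.17 ± 0.05, adjusted p = 0.00945 in EPRSTOPE). The M1 transcript Pkm-202 made up 10.4, 20.1 and 13.3% of the M1 plus M2 TPM (a length-corrected level) in the mock libraries, 11.0, 13.9 and 13.5% in EPR and 14.6, 12.8 and 6.93% in EPRSTOPE, the rest being the M2 transcript Pkm-201. Of this pair, the M2 transcript led in every library. The conditions overlapped in the M1 share, and the exact two-sided permutation tests gave p = 0.9 for EPR and p = 0.5 for EPRSTOPE against mock, where 3 against 3 libraries cannot give less than 0.1. Other Pkm transcripts were left out of this share. Of all Pkm TPM, Pkm-201 held a mean of 46.0% in mock, 60.4% in EPR and 67.5% in EPRSTOPE.

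Lactate dehydrogenase was almost purely of the A form. Ldha (chr7:46841475-46855627), which favours the reduction of pyruvate to lactate, had 859, 901 and 849.6 CPM in mock, 1447, 1469.5 and 1368 CPM in EPR and 1225, 1196 and 1142 CPM in EPRSTOPE libraries. The 3 conditions did not overlap, with EPRSTOPE between mock and EPR. The increase was called in EPR (0.72 ± 0.05, adjusted p = 1.70e-07) and was under the fold limit in EPRSTOPE (0.45 ± 0.05, adjusted p = 8.84e-06), and the direct difference was not called (0.27 ± 0.05, adjusted p = 0.00124). Ldhb, the heart-type subunit, held 2 counts in all, both in EPR libraries.

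At the entry to the mitochondrion, Pdk1 and Pdk2 rose and Pdk3 fell, and the dehydrogenase subunits were not called. Pdk1 (chr2:71873224-71903858), a kinase that inhibits pyruvate dehydrogenase, had 16.6, 17.2 and 16.8 CPM in mock, 43.2, 49.9 and 51.9 CPM in EPR and 37.1, 33.2 and 32.6 CPM in EPRSTOPE libraries. It rose by 1.51 ± 0.10, adjusted p = 9.96e-08 in EPR and 1.02 ± 0.10, adjusted p = 3.42e-06 in EPRSTOPE, and the higher level in EPR than in EPRSTOPE lay at the fold limit and was not called (0.50 ± 0.09, adjusted p = 0.00148). It was called with library totals (0.54), without a filter (0.52), with at least 10 counts in every library (0.53), with the compared conditions only (0.51), without EPR 206 (0.58) and without EPRSTOPE 209 (0.56). The EPRSTOPE call was lost with protein-coding transcripts alone (log2 fold change 0.63). Pdk3 (chrX:93764607-93832201), another of the kinases, fell from 24.4, 23.0 and 28.5 CPM in mock to 10.4, 11.5 and 7.76 CPM in EPR and 4.57, 7.05 and 7.59 CPM in EPRSTOPE libraries. The means were 2.56 times lower in EPR (-1.37 ± 0.18, adjusted p = 5.80e-05) and 3.95 times lower in EPRSTOPE (-1.96 ± 0.19, adjusted p = 4.70e-06). Pdk2, a kinase of the same family, was near the detection limit, with 3, 2 and 6 counts in mock, 22, 6 and 19 in EPR and 10, 20 and 21 in EPRSTOPE libraries. No mock library reached 1 CPM, so Pdk2 passed the filter on low values only through the libraries in which it was high. Its increases of 1.93 ± 0.50, adjusted p = 0.00718 in EPR and 2.39 ± 0.50, adjusted p = 0.00172 in EPRSTOPE were called, but the one in EPR was lost with DESeq2 (adjusted p = 0.0104), with limma-voom (adjusted p = 0.0149), with protein-coding transcripts alone (adjusted p = 0.0306) and, among the 9 libraries left out in turn, without mock 203, 204 or 205, EPR 206 or 208, or EPRSTOPE 210, at log2 fold changes of 1.62 to 2.19. The Pdk2 call in EPRSTOPE was lost with protein-coding transcripts alone. Pdha1 and Pdhb, subunits of the dehydrogenase itself, were not called, and the largest difference was -0.35 ± 0.08, adjusted p = 0.00385 for Pdhb in EPR. Pdhb lies on chromosome 14, whose 489 other tested genes had medians of 0.49 in EPR and 0.59 in EPRSTOPE against mock, while its 29 nearest tested neighbours had -0.27 and -0.28.

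Of the 3 enzymes of the oxidative branch of the pentose phosphate pathway, 1 was called in each comparison. G6pdx (chrX:74409483-74429194), the X-linked glucose-6-phosphate dehydrogenase and first step of the branch, had 66.8, 64.5 and 68.1 CPM in mock, 116, 107 and 102 CPM in EPR and 55.1, 58.0 and 56.4 CPM in EPRSTOPE libraries. It was 1.63 times the mock level in EPR (0.70 ± 0.06, adjusted p = 2.35e-06) and below mock without being called in EPRSTOPE (-0.23 ± 0.07, adjusted p = 0.0110). The direct difference, 1.91-fold, was called (0.94 ± 0.06, adjusted p = 7.18e-07). The EPR call against mock was lost with length-scaled TPM counts (log2 fold change 0.63, adjusted p = 0.0144). G6pdx shares 418 exon bases with Ikbkg on the opposite strand, which was at 112 CPM in mock, 141 CPM in EPR and 157 CPM in EPRSTOPE. Pgls, the lactonase of the next step, had 26.9, 26.4 and 29.1 CPM in mock, 38.9, 33.3 and 37.4 CPM in EPR and 50.1, 50.5 and 47.6 CPM in EPRSTOPE libraries, the opposite order of the overexpressing lines. It was called in EPRSTOPE (0.85 ± 0.08, adjusted p = 4.71e-06) and not in EPR (0.41 ± 0.08, adjusted p = 0.00142). With protein-coding transcripts alone Pgls was also called in EPR against mock (0.50, adjusted p = 0.00543) and in EPR against EPRSTOPE (-0.53, adjusted p = 0.00617). Pgd, which also forms NADPH, was at 109.5, 117 and 111 CPM in mock, 159, 148 and 144 CPM in EPR and 118, 129 and 120.0 CPM in EPRSTOPE libraries and was not called (0.42 ± 0.06, adjusted p = 0.000139 in EPR), except in EPR with length-scaled TPM counts (0.63, adjusted p = 0.00142).

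In the non-oxidative branch, the isomerase and the transaldolase changed and the others did not reach the call. Rpia (chr6:70765720-70792232), which makes ribose phosphate, fell from 22.2, 21.4 and 18.3 CPM in mock to 8.55, 11.9 and 8.22 CPM in EPR and 12.7, 13.3 and 8.86 CPM in EPRSTOPE libraries (-1.12 ± 0.18, adjusted p = 0.000289 in EPR and -0.83 ± 0.18, adjusted p = 0.00262 in EPRSTOPE). The EPRSTOPE call was lost without mock 204 (-0.80), without EPRSTOPE 211 (-0.65), with length-scaled TPM counts (-0.69) and with protein-coding transcripts alone (-0.91). Taldo1, transaldolase, had 95.8, 107 and 108 CPM in mock, 155, 142 and 139 CPM in EPR and 180.3, 183 and 171 CPM in EPRSTOPE libraries. It rose in EPRSTOPE (0.78 ± 0.07, adjusted p = 1.49e-06) and lay just under the fold limit in EPR (0.49 ± 0.07, adjusted p = 8.26e-05), so that its call there turned on the setting. DESeq2 (0.49) and limma-voom (0.48) left it uncalled, while it was called with at least 10 counts in every library, with protein-coding transcripts alone, with the compared conditions only and without mock 204, mock 205, EPR 207 or EPR 208, at 0.50 to 0.53. Tkt, transketolase, and Rpe, the epimerase, were not called, at 0.29 ± 0.05, adjusted p = 0.000909 and 0.42 ± 0.09, adjusted p = 0.00261 in EPRSTOPE. Rpe shares 558 exon bases with Kansl1l on the opposite strand, which was at 50.6 CPM in mock, 32.7 CPM in EPR and 20.3 CPM in EPRSTOPE. Tkt, like Pdhb, lies on chromosome 14, and its 40 nearest tested neighbours had medians of -0.45 in EPR and -0.23 in EPRSTOPE against mock.

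Isozyme composition was described as the share of each gene in the summed TPM of its set, which is on a per-length scale. The kinase set held Pdk1, Pdk2 and Pdk3, and Pdk4, which is not a member and whose levels are given below, was left out. Within that set, Pdk3 held 62.7, 57.1 and 68.7% in mock, 15.9, 17.0 and 16.4% in EPR and 9.43, 15.3 and 14.3% in EPRSTOPE libraries. Pdk1 held 36.7, 42.5 and 30.2% in mock, 81.2, 80.7 and 80.4% in EPR and 85.9, 80.2 and 77.3% in EPRSTOPE. Pdk3 thus led in every mock library and Pdk1 in every other library. With protein-coding transcripts alone Pdk3 had the largest mean share in all 3 conditions, at 91.7% in mock, 62.3% in EPR and 56.3% in EPRSTOPE, and Pdk1 was at 7.0%, 29.6% and 28.7%. The Pdk1 transcript with the largest TPM, Pdk1-206, is annotated as a processed transcript of 777 bases and is left out there. Within the PFKFB set, Pfkfb4 held 40.3 ± 2.97% (SD, n = 3) in mock, 9.97 ± 1.96% in EPR and 7.84 ± 2.06% in EPRSTOPE, and Pfkfb2 held 20.2 ± 4.84%, 43.6 ± 4.25% and 40.0 ± 4.34%. With protein-coding transcripts alone Pfkfb4 held 13.0%, 5.25% and 2.98%. Among the phosphofructokinase subunits, Pfkp held 33.3 ± 6.61% in mock, 14.3 ± 3.36% in EPR and 21.8 ± 4.51% in EPRSTOPE, Pfkm 10.9 ± 2.36%, 22.2 ± 0.849% and 17.1 ± 4.20%, and Pfkl was the largest at 55.8%, 63.5% and 61.2%. With protein-coding transcripts alone Pfkm held 22.2%, 32.3% and 25.4%, and with CPM in place of TPM it held 18.4% in mock. In all, 64 of the 126 mean shares recomputed with one of these settings moved by more than 1 SD. The hexokinase shares overlapped between conditions, with Hk1 at 57.2 ± 4.50%, 63.7 ± 3.62% and 63.0 ± 6.90% in mock, EPR and EPRSTOPE. Of the 63 exact two-sided permutation tests of these shares, 35 gave the smallest possible p of 0.1 and the smallest Benjamini-Hochberg adjusted value was 0.18, so none can pass the threshold.

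**Figure D4:**
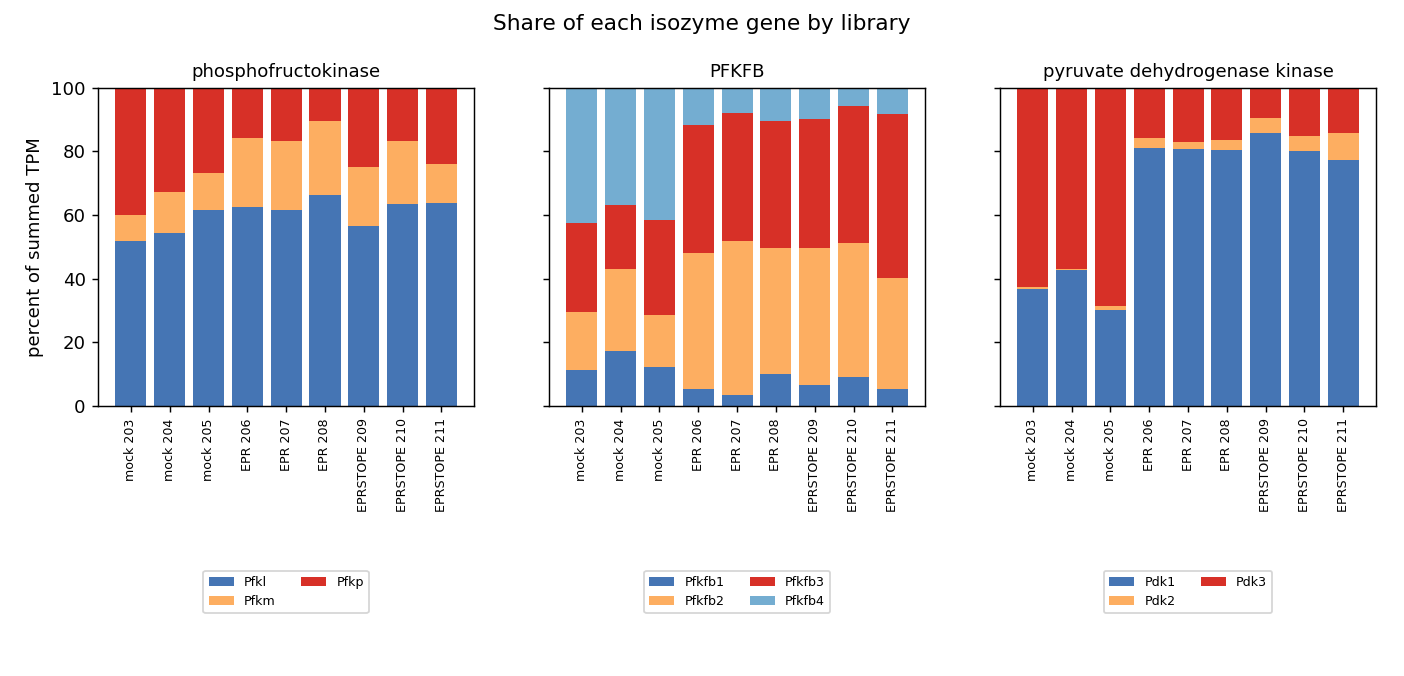
Share (percent of summed TPM, bars from 0 to 100, 1 bar per library) of each gene in the phosphofructokinase, PFKFB and pyruvate dehydrogenase kinase sets. Pfkfb4 holds 40.3% in mock (13.0% with protein-coding transcripts alone) and under 12% in every other library. The kinase set leaves out Pdk4, and within it Pdk3 leads in mock while Pdk1 leads in all other libraries.

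The TPM values carry a limit that differs between conditions. The fragment length that the quantification assumed, read as length minus effective length, was 411 to 473 bases in mock, 180.1 to 282 bases in EPR and 115 to 386 bases in EPRSTOPE libraries. The share of the members' TPM on protein-coding transcripts of at least 1000 bases was 33.9 to 52.5% in mock, 57.1 to 64.0% in EPR and 42.9 to 76.5% in EPRSTOPE, and the part of this difference in the TPM shares was not tested. In TPM the order of the members was Pkm, Gapdh, Eno1, Ldha and Aldoa in mock and Pkm, Ldha, Gapdh, Aldoa and Eno1 in EPR, with Ldha at 716 ± 38.3 TPM in mock and 923 ± 95.5 TPM in EPR. Short transcripts carry much of this order. Gapdh-206, a retained-intron transcript of 565 bases, held 71.7% of Gapdh TPM in mock and 72.1% in EPR. Eno1-205, of 773 bases, held 41.2% of Eno1 TPM in mock and 26.2% in EPR. Gapdh and Eno1, neighbours in the mock order at 1333 ± 199 and 964 ± 231 TPM, overlapped between libraries, and so did Ldha and Aldoa, the latter at 690.3 ± 25.2 TPM. The lowest tested members in mock were Aldoc and Pdk2, at 0.799 and 0.186 TPM.

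Genes next to these pathways were examined as well. Of 33 tested enzymes and carriers that adjoin glycolysis, 8 were called higher and 4 lower in EPR against mock and 12 higher and 3 lower in EPRSTOPE against mock, with medians of 0.14 and 0.31. Over all tested genes 15.2% were higher and 12.9% lower in EPR and 15.6% higher and 12.4% lower in EPRSTOPE, so the lower counts lie near the share over all genes. The pyruvate dehydrogenase kinase Pdk4, which is induced in fasting, was at 10.3, 11.8 and 14.2 CPM in mock, 0, 0.126 and 0.187 CPM in EPR and 1.86, 1.92 and 1.27 CPM in EPRSTOPE libraries and was called lower in both lines and lower in EPR than in EPRSTOPE. The liver-type pyruvate kinase Pklr went from 0.528 to 0.651 CPM in mock to 8.55 to 12.5 CPM in EPR and 1.28 to 1.86 CPM in EPRSTOPE. Pklr thus passed the filter on low values only through the conditions in which it was high. H6pd, the endoplasmic reticulum enzyme that begins a pentose phosphate route there, rose from 39.6 to 40.3 CPM in mock to 287 to 296 CPM in EPR and 308 to 321 CPM in EPRSTOPE (log2 fold changes 2.87 ± 0.05 and 2.98 ± 0.05, SE). Gpd1, glycerol phosphate dehydrogenase, rose in both as well (1.96 ± 0.22 and 2.25 ± 0.22).

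Genes of the low-oxygen and NRF2 responses were counted because textbook targets of both include enzymes of these pathways. The lists hold regulators such as Epas1 and Nfe2l2 as well as induced genes. Of 21 tested hypoxia response genes, 8 were higher and 1 lower in EPR and 9 higher and 1 lower in EPRSTOPE against mock, with medians of 0.34 and 0.46, where 15.2% and 12.9% of all tested genes were higher and lower in EPR and 15.6% and 12.4% in EPRSTOPE. The glucose transporter Slc2a1 rose from 59.8, 55.2 and 54.4 CPM in mock to 159, 183 and 149.8 CPM in EPR and 139, 124 and 141 CPM in EPRSTOPE (log2 fold changes 1.54 ± 0.09 and 1.26 ± 0.09, SE). Epas1, Ddit4 and Ankrd37 were called higher in both, and Epas1 was at 0.244 to 0.528 CPM in mock, near the floor, and at 2.76 to 4.36 CPM in the other libraries. Epas1 is counted among the higher genes although it passed the filter on low values only through the conditions in which it was high. Of 16 tested NRF2 response genes, 10 were higher and 1 lower in EPR and 6 higher and 1 lower in EPRSTOPE, beside the same shares over all genes. Gstm1, Gsta4 and Gclc, of glutathione metabolism, rose in both, with Gclc at 74.6 to 83.7 CPM in mock, 303 to 310 CPM in EPR and 243 to 270 CPM in EPRSTOPE, whereas Hmox1, heme oxygenase, fell in both.

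Promoters were searched for motifs tied to the low-oxygen and NRF2 responses. RefSeq promoter windows of the 250 bases before each start (GRCm38.p6) were searched on both strands for the core of the hypoxia response element, ACGTG or GCGTG, and for TGACNNNGC, the core of the element bound by NRF2. The first was found in 38.6% of all 32851 windows and in 41 of the 57 windows of the members (71.9%), covering 31 of the 37 members, and the second in 10.2% of all windows and in 4 of the 57. Windows of the same gene overlap in part. The windows of all genes were neither limited to expressed genes nor matched for base composition, so the higher share is not read as enrichment. One window each of Ldha and Pdk1, which rose in EPR, and the window of Pfkfb4, which had the largest decrease in EPR, are shown. Matches to the first motif on either strand are in capitals, 5′ to 3′ on the strand of the gene.
Ldha, plus strand, chr7:46845554-46845803: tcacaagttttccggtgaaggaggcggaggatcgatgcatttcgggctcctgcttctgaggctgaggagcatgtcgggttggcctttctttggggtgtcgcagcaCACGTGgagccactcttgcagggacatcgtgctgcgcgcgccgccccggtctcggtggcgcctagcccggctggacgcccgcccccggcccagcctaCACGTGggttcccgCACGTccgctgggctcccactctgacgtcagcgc
Pdk1, plus strand, chr2:71872974-71873223: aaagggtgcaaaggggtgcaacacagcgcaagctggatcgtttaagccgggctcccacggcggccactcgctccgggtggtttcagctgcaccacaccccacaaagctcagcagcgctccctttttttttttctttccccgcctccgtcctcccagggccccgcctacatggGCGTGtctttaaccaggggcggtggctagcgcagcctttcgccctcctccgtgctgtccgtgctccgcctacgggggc
Pfkfb4, plus strand, chr9:108991652-108991901: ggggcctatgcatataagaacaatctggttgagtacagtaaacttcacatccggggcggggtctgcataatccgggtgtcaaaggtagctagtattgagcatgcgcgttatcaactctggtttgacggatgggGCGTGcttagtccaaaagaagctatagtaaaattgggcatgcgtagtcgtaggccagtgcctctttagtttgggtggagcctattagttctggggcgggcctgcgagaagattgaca
The motif was present in windows of members that rose and of members that fell. Pdk3 and Pfkp, which fell in both lines, also held it, with 4 and 3 matches. With a match in 31 of the 37 members this was nearly fixed in advance, and no conclusion is drawn from it. Ldha and Pdk1 each have a further window that is not shown, with 1 and 0 matches, against 5 and 1 in those shown. A CACGTG is counted once on each strand, so matches are not numbers of separate sites. A match describes letters and not binding.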

How the data were processed

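RNA-Seq libraries of NMuMG cells (mock, EPR and EPRSTOPE, 3 each) were quantified per transcript by the authors. The submitters' processing notes name bcl2fastq 2.0, kallisto 0.43.1 and the build GRCm38.p5, and also list hg38 with no role given. The strand setting is not given in the sources used here. The deposited files hold estimated counts and TPM, with each transcript's length and effective length, as the authors' quantification wrote them. Estimated counts were summed per gene symbol and rounded to whole numbers. The 15370 genes that reached 1 CPM in 3 or more libraries entered 1 fit over all 9 libraries with TMM scaling and the quasi-likelihood test of edgeR 4.0.16 (R 4.3.3) with Benjamini-Hochberg adjustment. SEs are the log2 fold change divided by the square root of the F statistic. A call needed a log2 fold change of over 0.5 in size and an adjusted p below 0.01. Values per library are TMM-normalized CPM computed from those counts, and TPM shares were compared by exact two-sided permutation tests.

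Library totals were 5972457 to 11876435, and the floor of 3 counts covers counting error only. Alternatives were DESeq2 1.42.0, limma-voom (limma 3.58.1), other scaling and filters, length-scaled TPM counts, protein-coding transcripts, other thresholds and leaving out each library. Near-identical copies were found with BLAST+ 2.17.0 and added after the data were seen. Every member is accounted for, those called in any comparison with all library values. From the neighbouring lists, up to 4 genes called in both comparisons with mock are named, by size of the change in EPR. The members and lists were chosen with earlier results of these data known. The scripts were tested on simulated data.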

Additional observations from a re-analysis of the deposited data

How the results depend on the processing

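No paired analysis was possible because the library numbers are unique and no number is shared between conditions. Of the 31 called member differences, 16 kept their call at every alternative fit in which they were tested, the 9 left-out libraries included. Another 15 lost it at least once and 0 reversed. The other thresholds were applied only to the numbers of called members and genes, not to these single calls. Among the differences that were not called, 15 gained a call at least once, for Gpi1, Pfkl, Pfkfb1, Gapdh, Pgk1, Eno2, Pdk1, Pdk3, Pgls, Pgd, Rpe and Taldo1. In EPR against mock, members higher and lower numbered 21 and 7 at an adjusted p under 0.05 with no fold limit (7478 genes in all), and 3 were higher at a log2 fold change beyond 1 (2296 genes). In EPRSTOPE against mock these settings gave 17 and 8 (7442 genes) and 5 and 2 (2373 genes). In EPR against EPRSTOPE they gave 11 and 5 (4637 genes) and 0 and 1 (1001 genes). With protein-coding transcripts alone the lower members numbered 2, 2 and 1 in the 3 comparisons. Length-scaled TPM counts gave 2 lower members in EPRSTOPE against mock, and 1 lower member and 940 called genes in EPR against EPRSTOPE, where a minimum of 10 counts also gave 1 lower and no filter gave 5 higher. Leaving out libraries gave 8 to 10 higher and 4 to 5 lower members in EPR, 9 higher and 3 to 6 lower in EPRSTOPE, and 3 to 4 higher and 2 lower in EPR against EPRSTOPE.

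Differences that changed sign had not been called before, and the cause was not tested. Gapdh in EPRSTOPE against mock became a call in the other direction with protein-coding transcripts (adjusted p = 0.00349). With protein-coding transcripts the log2 fold change in EPR against mock was 1.04 for Gapdh and -0.081 for Tkt, in EPRSTOPE against mock 5.16 for Gapdh, 0.040 for Eno1 and -0.035 for Pgd, and in EPR against EPRSTOPE 0.32 for Pfkfb4, -4.12 for Gapdh, 0.53 for Eno2, 0.076 for Pdhb and 0.053 for Rpe. With length-scaled TPM counts it was -0.052 for Rpe in EPR, -0.10 for Pfkl, -0.17 for Eno3, -0.028 for Pkm and -0.050 for Pdha1 in EPRSTOPE, and 0.019 for Hk2, -0.27 for Pfkp and 0.17 for Pfkfb4 between EPR and EPRSTOPE. With library totals it was -0.0067 for Tpi1 in EPR, -0.024 for Aldoa, -0.0013 for Eno3 and -0.10 for Pdha1 in EPRSTOPE, and 0.031 for Pdhb between EPR and EPRSTOPE. Pdhb in that comparison was also 0.0086 with limma-voom, 0.010 without a filter, 0.025 with at least 10 counts and 0.0039 with the compared conditions only. Leaving out libraries in turn gave -0.0064 to 0.044 for Pdha1 in EPRSTOPE against mock. Between EPR and EPRSTOPE it gave -0.044 to 0.24 for Pfkp, -0.67 to 0.15 for Pfkfb1, -0.16 to 0.18 for Gapdh, -0.069 to 0.10 for Pdhb and -0.062 to 0.0081 for Tkt.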
